A study of Mus musculus with 2 samples.

Results

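The replication-dependent histone genes, the multi-copy genes that encode the bulk of the H1, H2A, H2B, H3 and H4 proteins, were examined in embryonic mouse lung. Members were all genes present in both deposited gene tables whose GENCODE M21 symbol begins with Hist1h, Hist2h, Hist3h or Hist4h, with pseudogenes left out, which gave 64 of 43346 mouse genes. By class they were 6 H1, 18 H2A, 15 H2B, 12 H3 and 13 H4 genes. By locus, 52 lay in the Hist1 cluster on chromosome 13, 9 in Hist2 on chromosome 3, 2 in Hist3 on chromosome 11 and 1, Hist4h4, on chromosome 6. A further 3 protein-coding M21 genes with matching symbols (Hist2h2bb, Hist1h2bm and Hist1h2bh) were not analysed here. Total RNA from lung of B6NCrl mice at embryonic day 14.5 was sequenced as 2 libraries, biological replicates 1 and 2 of 1 group, with no second condition, no transgene and no treatment in the labels. Extraction used the Ambion mirVana method per the labels, each library took 10.0 ng of RNA above 200 nt with spike-in RNA, and the lungs were collected 2 days apart, replicate 1 on day 15 and replicate 2 on day 17 of July. The labels call each sample both pooled male and female and a single lung of 1 pup, so it is unclear how many animals stand behind each library. The p-values below set 1 library against 1 other and, except where edgeR is named, model counting error alone, with no spread between samples in them. The spread in edgeR was estimated from these same 2 libraries taken as 1 group, so the difference tested is itself part of it. The name of a linked protocol points to Smart-seq, a full-length cDNA method. Neither labels nor file headers say whether untailed RNA was captured, and this bears on every level below.

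Core histones H2A, H2B, H3 and H4 form the protein spool of the nucleosome, and the linker histone H1 binds where DNA enters and leaves it. Replication-dependent genes are transcribed together in S phase, and their mRNAs end just past a conserved stem-loop in place of a poly(A) tail. Stem-loop binding protein (SLBP) and the U7 small nuclear ribonucleoprotein direct that cut, while replication-independent variants such as H2A.Z and H3.3 come from ordinary polyadenylated mRNAs.

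The stem-loop is the sequence feature that sets these mRNAs apart, so its letters were read from the M21 transcripts of the members. The pattern searched was a stem of GG, 2 bases of C or T, and CT, a loop of 4 bases without G, and a returning stem of AG, 2 bases of A or G, and CC. It was sought on the transcribed strand only. It occurred in 44 of the 64 members (68.8%) and in 77 of 55277 other M21 genes (0.139%). The letters come from M21 models, and 48 of the members' 69 transcripts had the same version and length in M21 as in the tables. The forms below show 6 of the 8 distinct sets of letters found, each in a member described further on, where capitals mark the 16 bases of the stem-loop and lower case the bases on either side.
Hist1h2ae: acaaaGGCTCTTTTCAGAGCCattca
Hist1h3c: aaaaaGGCTCTTTTAAGAGCCaccta
Hist2h2ac: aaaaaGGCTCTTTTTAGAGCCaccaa
Hist1h4d: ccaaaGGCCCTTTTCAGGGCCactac
Hist2h4: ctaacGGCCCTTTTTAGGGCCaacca
Hist1h4j: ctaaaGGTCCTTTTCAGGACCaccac

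The stem letters separated H4 from the other classes. All 32 matching members outside H4 had the stem GGCTCT, while of 12 matching H4 members 10 had GGCCCT and 2, Hist1h4b and Hist1h4j, had GGTCCT. The loop was TTTC in 33 members, TTTA in 6 and TTTT in 3, and Hist1h4a (TCTC) and Hist1h3g (TCTT) each had their own. The most abundant member, Hist1h2ap, and its near-identical copy Hist1h2ao had an unusual stretch before the loop, a run of 12 A bases that ends where the stem begins, shown here in lower case ahead of the stem-loop in capitals.
Hist1h2ap: aaaaaaaaaaaaGGCTCTTTTCAGAGCCat
Hist1h2ao: aaaaaaaaaaaaGGCTCTTTTCAGAGCCat

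In both genes that run lies past the stop codon, and the model of Hist1h2ap ends 3 nt after the loop. Among those 48 transcripts, which come from 46 members, the median longest A run was 4 bases and only these 2 transcripts held a run of 8 or more. Outside the 48, where the M21 model differs from the quantified one, longer runs also occurred. Hist1h1d, Hist1h2ae and Hist1h2bc held runs of 8, Hist1h2be of 11 and Hist1h2ac of 15. The run of Hist1h2ae ends 4 nt before its stem-loop. Across the 48 transcripts, Spearman's rho between the longest A run and mean TPM was -0.19, a description over genes that share libraries and sequence. With only 2 runs of 8 or more among the 48, this rho cannot describe long runs. TPM is the deposited level per effective length, scaled to the same sum in each library. Whether the A run bears on how these mRNAs were captured was not tested.

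Histone mRNA levels were dominated by 1 gene. The members took 52493 of the expected counts (estimated reads) in replicate 1 and 55283 in replicate 2, which is 0.164% and 0.167% of all mouse gene counts. Their TPM summed to 5949 and 6219. Hist1h2ap, an H2A gene (ENSMUSG00000094777.2, chr13:21833026-21833507 on GRCm38, minus strand, a single exon of 482 nt), stood at 4327 TPM in replicate 1 and 4468 TPM in replicate 2, or 4397 ± 100.1 (SD, n = 2). Both values lay far above every other member, and it ranked 11th of all mouse genes by mean TPM. It held 72.3% of the members' summed TPM. Of the members' counts its share was 70.4% for replicate 1, with an exact 95% interval of 70.0 to 70.8, and 69.3% for replicate 2, with 68.9 to 69.7, where the intervals cover counting error only.

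Most other members were present at low levels. Only 4 members reached a mean of 100 TPM, 25 lay from 10 to under 100, 27 from 1 to under 10, and 8 under 1. With detection set at 1 TPM or more in both libraries, 55 of 64 members were detected: 5 of 6 H1, 16 of 18 H2A, 13 of 15 H2B, 11 of 12 H3 and 10 of 13 H4. The member models were short, with a median of 483.5 nt and a range of 312 to 2879 nt. Per-length levels of such short genes depend on the effective length, which in these tables is the length minus 99 nt.

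**Figure D1:**
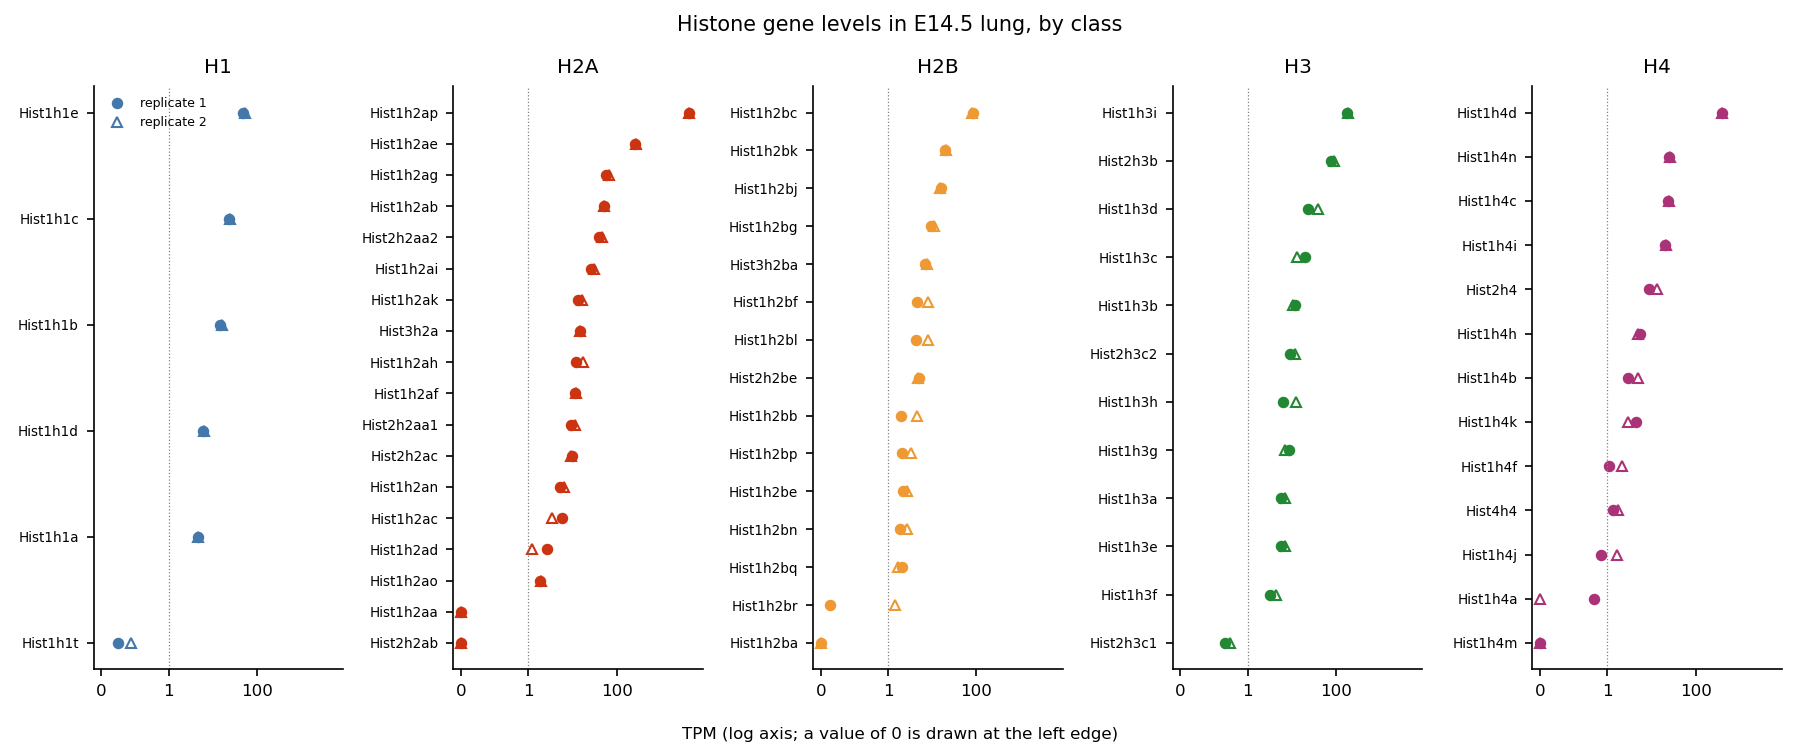
Deposited TPM (log axis) of each of the 64 members in replicate 1 (filled circles) and replicate 2 (open triangles), by histone class, with 1 TPM as a dotted line. Hist1h2ap stands at 4327 and 4468 TPM, above every other member, and most members hold the same place in both libraries.

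Summed by class, H2A was highest in both libraries and H1 lowest. The sum over H2A members was 4848 TPM, then 5039 TPM in the second library (4944 ± 135, SD, n = 2). H4 summed to 503 ± 7.19 TPM, H3 to 371 ± 30.8, H2B to 165 ± 9.92 and H1 to 100.9 ± 7.53. The gap between neighbouring classes was larger than the spread between the libraries in each case. Without Hist1h2ap the H2A sum was 546 ± 35.0 TPM, with 522 in replicate 1 and 571 in replicate 2, against 498 and 508 for H4. Those ranges do not overlap, but the difference is close to the spread of the H2A sum. The shares of the remaining TPM were then 32.4% for H2A, 29.9% for H4, 22.0% for H3, 9.78% for H2B and 5.98% for H1. A class sum depends on the split of reads between copies of that class only through the copies' lengths.

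**Figure D2:**
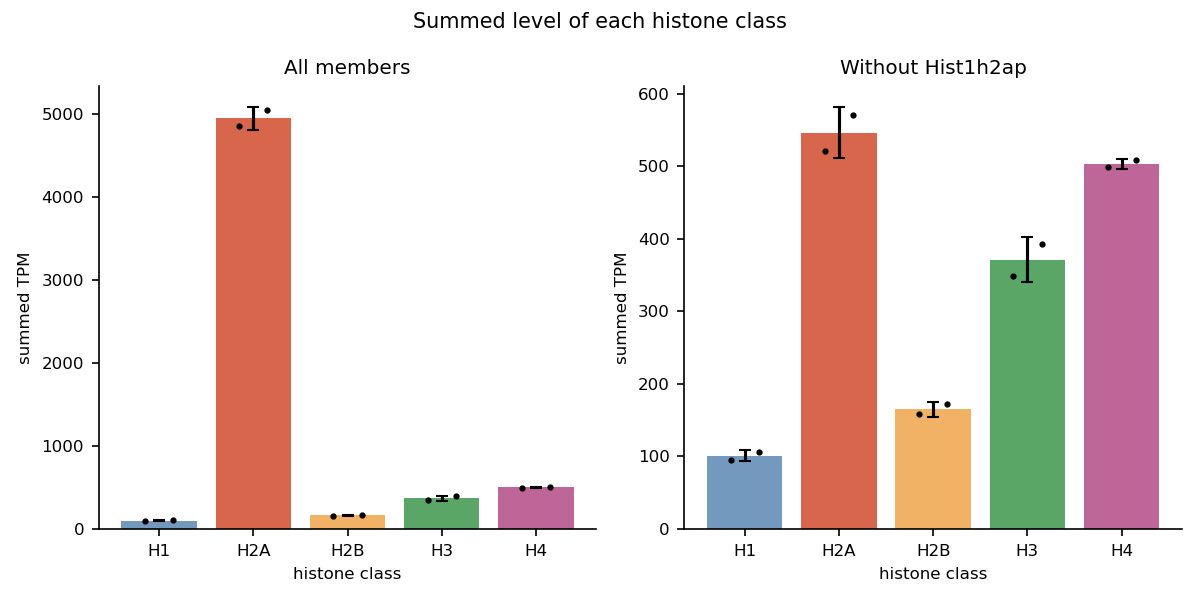
Summed TPM of each histone class with all members (left) and without Hist1h2ap (right); bars are means, error bars the SD of 2 libraries and points the 2 libraries, each axis starting at 0. H2A stands at 4944 TPM with Hist1h2ap and at 546 TPM without it, where H4 follows at 503 TPM.

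Among H2A genes, which encode a partner of H2B in the nucleosome, Hist1h2ae ranked next after Hist1h2ap (ENSMUSG00000069272.5, chr13:23570517-23571220). It stood at 262 TPM in replicate 1 and 280 TPM in replicate 2, a mean 16.2-fold below that of Hist1h2ap. The quantified model of Hist1h2ae is 460 nt, against 704 nt for the M21 model at these coordinates. Hist1h2ag followed at 56.6 and 67.9 TPM and Hist1h2ab at 50.8 and 53.1 TPM. Of these last 2 genes, Hist1h2ag had the higher TPM in each library. Their deposited credible intervals overlapped in both libraries, so the order of these 2 genes is not settled. The Hist2 genes Hist2h2aa2 (40.0 and 45.7 TPM), Hist2h2aa1 (9.10 and 11.6 TPM) and Hist2h2ac (9.94 and 9.09 TPM) were all detected, as was Hist3h2a (14.7 and 14.8 TPM). Hist2h2ab and Hist1h2aa were at 0 counts in both libraries. Hist1h2aa is known as a testis-expressed H2A gene. The upper credible limits in the deposited tables, which allow for shared reads, were 1.84 and 1.08 TPM for Hist2h2ab and 0.449 TPM in each library for Hist1h2aa. The other 8 H2A genes had means from 1.89 (Hist1h2ao) to 28.7 TPM (Hist1h2ai).

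In H2B, no member came near the leading H2A gene. Hist1h2bc (chr13:23684199-23692908) was highest at 82.1 TPM in replicate 1 and 81.2 TPM in replicate 2. Its quantified model is 736 nt, against 1156 nt in M21. Hist1h2bk stood at 19.4 and 20.4 TPM, Hist1h2bj at 15.6 and 14.7, and Hist1h2bg at 9.61 and 10.8. Of these 4 genes, the 2 values of each lay closer to each other than to those of the next gene in rank. Hist3h2ba had 7.05 and 7.63 TPM. Hist2h2be, whose model runs to 2620 nt and holds no stem-loop letters, had 5.02 and 4.73 TPM. Hist1h2ba, the testis H2B gene, was at 0 counts in both libraries, with upper credible limits of 0.603 and 0.667 TPM. The other 8 H2B genes had means from 0.73 (Hist1h2br) to 6.24 TPM (Hist1h2bf).

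Of the H2B genes, 4 have more than 1 transcript in the tables, and in 3 of them the deposited percent of the gene's TPM per transcript differed between libraries. For the other, Hist1h2bq, the 2121-nt transcript carried 100% in both. For Hist1h2be, a 2099-nt transcript with no coding sequence in M21 carried 58.9% of the gene's TPM in replicate 1 and 71.1% in replicate 2, while a 2408-nt coding transcript carried the rest. For Hist1h2bp, the 469-nt transcript that ends 38 nt past its stem-loop carried 38.9% and 72.4%, so the leading transcript changed. Those percentages rest on 21.3 and 30.2 counts for the whole gene. For Hist1h2br the 1256-nt transcript carried 100% and 51.6%, and the first of these values rests on 1.24 counts.

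The H3 genes were led by Hist1h3i (ENSMUSG00000101972.1, chr13:21782960-21783370) at 178 TPM in replicate 1 and 190 TPM in replicate 2. Hist2h3b came next at 78.3 and 89.3 TPM, and Hist1h3d then at 23.0 and 39.0 TPM. Hist1h3c stood at 19.4 and 13.0 TPM, both below the lower value of Hist1h3d, although the 2 genes moved in opposite directions between the libraries. In replicate 1 their deposited credible intervals overlapped, at 15.6 to 22.6 TPM for Hist1h3c and 18.7 to 26.9 TPM for Hist1h3d. Hist2h3c2 had 9.15 and 11.8 TPM. Hist2h3c1, the lowest H3 gene by TPM, had 0.30 and 0.40 TPM, with 11.7 and 15.6 counts. Its level was poorly set, with deposited credible intervals of 3.2e-05 to 2.24 TPM in replicate 1 and 5.0e-05 to 0.994 TPM in replicate 2. The remaining 6 H3 genes had means from 3.84 (Hist1h3f) to 11.1 TPM (Hist1h3b).

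Among H4 genes, whose protein is the most conserved of the core histones, Hist1h4d (ENSMUSG00000061482.6, chr13:23581598-23582735) was the highest. Its quantified model is 393 nt, against 1138 nt for the M21 model at these coordinates. Hist1h4d stood at 403.8 and 404.4 TPM, with 2648 and 2662 counts, and it was the second most abundant member of all. Hist1h4n (24.7 and 25.9 TPM), Hist1h4c (23.8 and 25.4 TPM) and Hist1h4i (20.5 and 20.8 TPM) followed far below it. The values of Hist1h4n and Hist1h4c overlap between libraries. Hist2h4 had 8.87 and 13.4 TPM and Hist4h4, the single Hist4 gene, 1.35 and 1.72 TPM. Hist1h4m was listed at 0 in both libraries. It shares 88.1% of its 100-nt windows with Hist1h4n, so that 0 alone sets no limit on its level. Its upper credible limits, which allow for shared reads, were 2.30 and 2.67 TPM. The remaining 6 H4 genes had means from 0.25 (Hist1h4a, with 4.86 and 0 counts) to 5.18 TPM (Hist1h4h).

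All H1 genes, which encode the linker histones, have 1 transcript each in the tables. Hist1h1e was highest at 47.6 TPM in replicate 1 and 54.4 TPM in replicate 2. Hist1h1c followed at 22.9 and 24.8 TPM, and Hist1h1b at 14.6 and 15.9 TPM. Each was higher in replicate 2 and no 2 of these genes overlapped. Hist1h1d stood at 5.94 and 6.41 TPM and Hist1h1a at 4.54 and 4.69 TPM. The testis-specific linker gene Hist1h1t had 1 and 2 counts, under the 3 counts that a count of 0 allows, with upper credible limits of 0.329 and 0.445 TPM. None of the 3 germ-line members (Hist1h1t, Hist1h2aa and Hist1h2ba) was therefore detectable above 1 TPM at this depth.

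Where the transcript models end was compared with the stem-loop. Of the 48 transcripts shared by M21 and the tables, 17 ended within 100 nt of the stem-loop, 10 ended further past it and 21 held none. The first 17 carried 90.6 ± 0.547% of the 48 transcripts' summed TPM (91.0% in replicate 1 and 90.2% in replicate 2). Without Hist1h2ap they carried 35.8 ± 0.219%. Of the 21 models without the letters, 12 end at the stop codon and hold no sequence past it. Hist1h3i, the leading H3 gene, is one of those 12. Models with long extensions past the loop were present at low to moderate levels: Hist3h2a extends 1643 nt past it and Hist2h4 1257 nt.

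Many H2A and H2B genes lie head to head and share a promoter region, so the members of such pairs were set side by side. In all, 12 pairs had start sites within 1000 nt on opposite strands, 175 to 305 nt apart, and every pair joined an H2A and an H2B gene. The H2A gene was higher in both libraries in 7 pairs and the H2B gene in 3, and over the 11 pairs with both genes above 0 the median ratio of H2A to H2B mean TPM was 2.20. Spearman's rho of the H2A and H2B means over the 12 pairs was 0.20, a description over genes from the same 2 libraries. In every pair above 0 except Hist2h2ac with Hist2h2be, at least 1 gene had a count of uncertain placement between copies, as defined below. The pair contrasts carry that uncertainty. The sharpest contrast was Hist1h2ap against Hist1h2br, 235 nt apart, where Hist1h2br stood at 0.05 TPM in replicate 1 (1.24 counts, under the floor of 3) and 1.41 TPM in replicate 2 (51.1 counts). Hist1h2ae, at 262 and 280 TPM, lay 175 nt from Hist1h2bg at 9.61 and 10.8 TPM, a ratio of 26.5. The order was opposite for Hist1h2ac and Hist1h2bc, 250 nt apart, with 5.81 and 3.43 TPM for the H2A gene against 82.1 and 81.2 TPM for the H2B gene. Hist1h2aa and Hist1h2ba, the testis pair, were both at 0 counts.

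**Figure D3:**
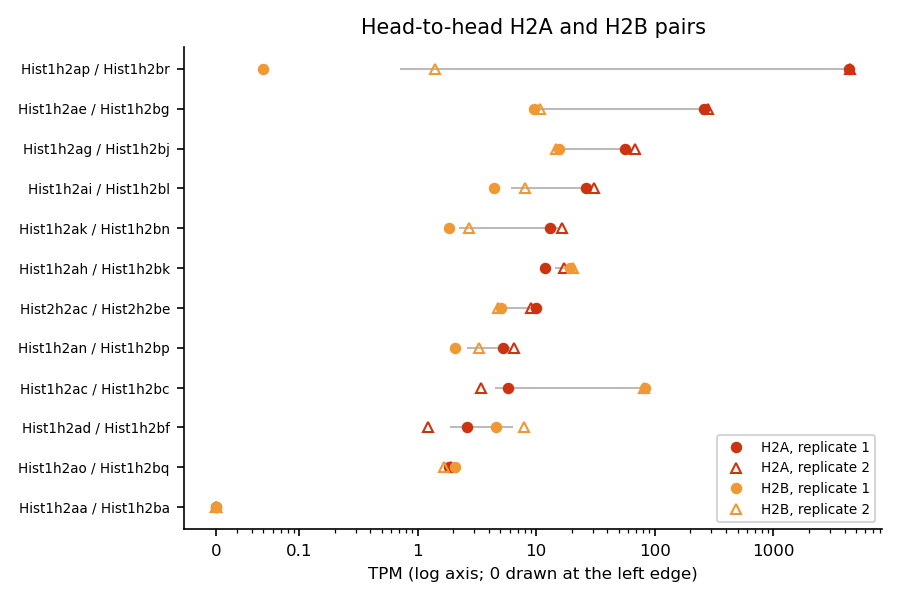
TPM (log axis) of the H2A (red) and H2B (orange) gene in each of 12 head-to-head pairs, replicate 1 filled and replicate 2 open, with a grey line joining the 2 means. Hist1h2ap lies far above Hist1h2br, whereas Hist1h2bc at 82.1 and 81.2 TPM lies above Hist1h2ac.

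Promoter letters were read for the 59 members with a RefSeq entry (GRCm38.p6), in windows of 300 nt that run from 250 bases before the annotated start to 50 after it. The letters searched on both strands were the octamer ATTTGCAT, the TATA-box letters TATAAA and the CCAAT box CCAAT, none of which contains another. The 3 stretches below belong to the leading H2A genes and the leading H4 gene, up to 150 bases before the start and without bases of the M21 gene, with every match on either strand in capitals: Hist1h2ap at chr13:21833508-21833625 (minus strand), Hist1h2ae at chr13:23571221-23571370 (minus strand) and Hist1h4d at chr13:23581418-23581567 (plus strand).
Hist1h2ap: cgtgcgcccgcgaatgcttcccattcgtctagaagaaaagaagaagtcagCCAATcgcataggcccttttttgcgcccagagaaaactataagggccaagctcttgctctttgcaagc
Hist1h2ae: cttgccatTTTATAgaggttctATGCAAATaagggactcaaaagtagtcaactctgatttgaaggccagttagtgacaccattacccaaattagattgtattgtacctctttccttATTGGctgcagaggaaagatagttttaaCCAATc
Hist1h4d: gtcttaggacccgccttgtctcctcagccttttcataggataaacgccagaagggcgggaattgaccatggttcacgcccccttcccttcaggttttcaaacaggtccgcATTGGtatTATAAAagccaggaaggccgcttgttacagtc

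The octamer occurred in 7 of 18 H2A and 5 of 13 H2B promoters and in none of the 6 H1, 10 H3 and 12 H4 promoters, against 1.74% of all 32851 promoters. The CCAAT letters were in every H1, H2A, H2B and H3 promoter (6, 18, 13 and 10) and in 3 of 12 H4 promoters, against 37.4% of all. TATAAA was in 35 of the 59, or 59.3%, against 13.6% of all. In the window of Hist1h2ap neither the octamer nor TATAAA was found, which says only that these letters are not there. Paired H2A and H2B genes share part of their windows, so their matches are not separate observations. The octamer and TATAAA letters marked ahead of Hist1h2ae are the same bases, on the other strand, as those ahead of Hist1h2bg.

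The copies differ in how firmly their reads could be placed. The tables give a posterior SD of each count, which grows where reads fit several copies, and a member was marked as uncertain where this SD was at least 10% of the count in either library, given 10 or more counts. That held for 28 of 58 members, while 5.96% of the 17733 mouse genes with 10 or more counts met the same limit. By class it held for 9 of 16 H2A, 8 of 14 H2B, 6 of 12 H3, 5 of 11 H4 and 0 of 5 H1 genes. The posterior SD was 0 in both libraries for 5 members, Hist1h1a, Hist1h1b, Hist2h2be, Hist2h4 and Hist4h4, and of these Hist1h1b, Hist2h2be and Hist2h4 held no 100-nt window found in another gene. Just under the limit lay Hist1h2bk (8.83%), Hist2h3c2 (9.56%) and Hist2h2aa2 (9.90%). Just over it lay Hist1h2ag (10.01%), Hist1h3a (10.4%) and Hist1h4h (11.1%), so these 6 do not fall into separate groups.

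Uncertainty went with shared sequence, measured as the percent of a transcript's 100-nt windows found in another M21 gene. The 21 uncertain members with a comparable model shared a median of 76.2% (range 18.2 to 100%), and the 20 others shared 35.0% (0 to 100%). Spearman's rho between percent shared and posterior SD over these 41 members was 0.61, given as a description. Being a percent of the count, this SD depends on the count as well as on sharing. Hist1h4f, with 7.19 and 14.0 counts, shared 18.2% and was marked as uncertain. Hist1h3i, with 1239 and 1330 counts, shared 68.6% and was not. For Hist2 members the other gene is at times an overlapping read-through entry of M21, as with Gm20633 over Hist2h2aa1, so full sharing there need not mean a separate copy. Hist1h2ap departed from this pattern: 92.2% of its windows occur in Hist1h2ao, yet its posterior SD was 0.203% of the count. For Hist1h2ao, with 15.7 and 16.5 counts, the SD reached 145% of the count. The level of Hist1h2ao can therefore not be told from 0, and the summed level of the copies, 4328 TPM in replicate 1 and 4470 in replicate 2, is almost that of Hist1h2ap alone.

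**Figure D4:**
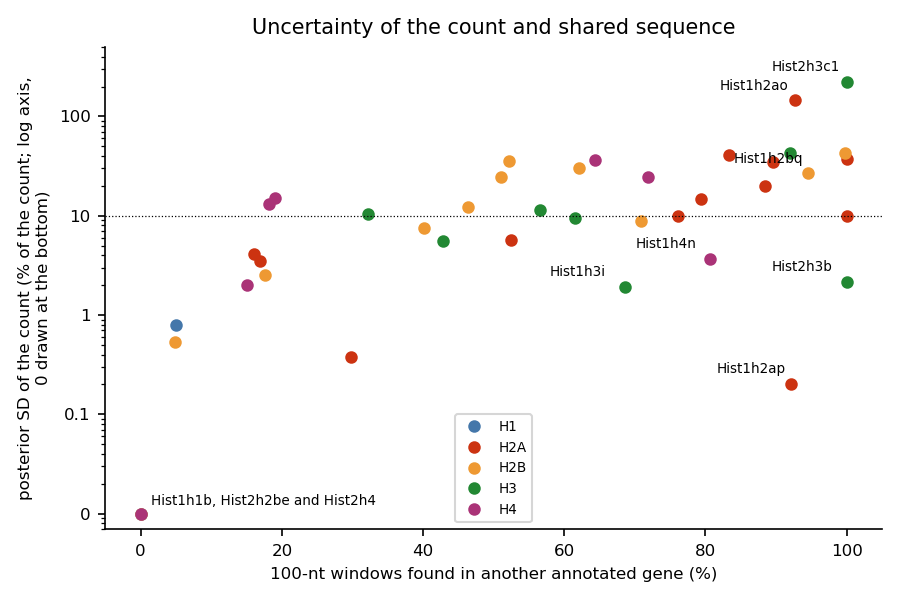
Posterior SD of the count as a percent of the count (log axis, larger value of the 2 libraries) against the percent of 100-nt windows found in another annotated gene, for the 41 members with both values, coloured by class, with the 10% limit dotted. Hist1h2ap has 92.2% shared windows and an SD of 0.203%, while Hist1h2ao has 92.7% and 145%.

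Between the libraries, histone levels held closely. Pearson's r of log2(TPM + 1) over the 64 members was 0.99 and Spearman's rho 0.98, across genes that are not independent replicates. Log2 ratios of replicate 2 over replicate 1 were taken on scaled counts plus 0.5, and 53 of the 56 members with a mean of 1 TPM or more were within 2-fold. The median log2 ratio was 0.068, against -0.0016 for all 14870 genes tested. Higher in replicate 2 were 37 of 56 members (66.1%), against 49.6% of all genes, and with spike-in scaling 51 of 56 against 93.1%. In bulk tissue, fewer cells of a type and less RNA per cell cannot be told apart. With 1 library on each side, each ratio has no replicate check.

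A single member, Hist1h2bb, passed the exact binomial test with Benjamini-Hochberg adjustment and the 2-fold limit, against 1.14% of all genes. This H2B gene had 15.4 expected counts in replicate 1 and 36.4 in replicate 2 (1.95 and 4.60 TPM), a log2 ratio of 1.17 with an adjusted p of 0.0355. Its posterior SD was 28.6% of the count, and the part of read placement among copies in this difference was not tested. With edgeR's exact test the adjusted p was 0.711, and with posterior mean counts it was 0.0576 by the binomial test, so the call was lost under both. With no filter on low values Hist1h2bb was not called either, and the 1 member called was Hist1h2br. Over the alternatives, which include spike-in scaling, its adjusted p ranged from 0.000532 (binomial test) to 0.711 (edgeR). Hist1h2ad (21.1 and 9.92 counts, log2 ratio -1.10) and Hist1h4j (10.99 and 25.6 counts, log2 ratio 1.14) exceeded 2-fold without passing the adjusted p. They were named after their values were seen.

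At any size of difference, 5 members had an adjusted p under the limit of 0.05, where 22.5% of all genes did. Hist1h3d had 236 and 402 counts, a log2 ratio of 0.70. Hist1h3h had 44.1 and 88.1 counts, a log2 ratio of 0.93, with a posterior SD of 43.2%. Hist2h4, whose posterior SD is 0, had 303 and 459 counts, a log2 ratio of 0.54. With Hist1h2bb these were higher in replicate 2, while Hist1h3c was lower, with 169 and 113 counts and a log2 ratio of -0.64. By the exact binomial test the adjusted p was 6.43e-08 for Hist1h3d, 1.11e-05 for Hist2h4, 0.00217 for Hist1h3c and 0.00312 for Hist1h3h. With edgeR's exact test, 0 members had an adjusted p under that limit, and it was 0.210 for Hist1h3d, 0.790 for Hist2h4, 0.716 for Hist1h3c and 0.404 for Hist1h3h. These 4 genes were likewise named for their values. The dispersion in edgeR comes from the same 2 libraries, so its non-calls cannot decide whether these differences exceed the spread between samples.

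**Figure D5:**
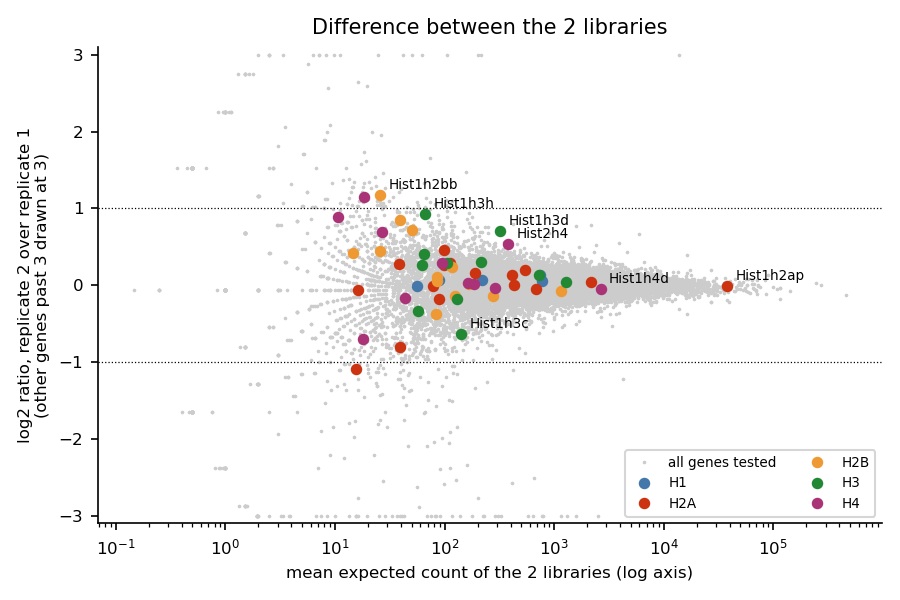
Log2 ratio of replicate 2 over replicate 1 against the mean expected count (log axis) for all genes tested (grey) and the 56 members tested, coloured by class, with the 2-fold limits dotted and other genes past 3 drawn at 3. Hist1h2bb lies above the upper limit, and Hist1h2ap, with the most counts, lies at -0.011.

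Counts were also summed over each class, which sets aside how reads were split between its copies. The log2 ratio was 0.14 for H3 (exact 95% interval 0.066 to 0.21), 0.087 for H1 (-0.0060 to 0.18), 0.025 for H2B (-0.059 to 0.11), 0.027 for H4 (-0.038 to 0.091) and -0.0024 for H2A (-0.022 to 0.017). With this scaling and all members, only the H3 interval excluded 0, and these intervals cover counting error only. The H1 interval also excluded 0 when scaled by summed mouse gene counts (0.0022 to 0.19), as did every class with spike-in scaling and H2A without Hist1h2ap (0.0019 to 0.12). The common biological coefficient of variation over all genes, estimated from the 2 libraries taken as 1 group, was 9.57%. Scaling by spike-ins in place of TMM would shift every ratio up by 0.34, so directions hold relative to other mouse genes only. Among pairs of near-identical members with at least 80% of windows shared, Hist1h2bq had 93.1 and 75.2 counts and Hist1h2br 1.24 and 51.1. Their sum of 94.4 and 126 counts gave a log2 ratio of 0.36 (-0.037 to 0.76). Hist2h2aa1 and Hist2h2aa2 together had 481 and 565 counts, a log2 ratio of 0.17 (-0.0083 to 0.35).

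The machinery that makes and trims histone mRNA was present. Of the 29 matched genes of transcription and end processing, 27 were detected. The U7 RNA gene Rnu7, which is shorter than the 100 nt needed to take reads in these tables, was listed at 0. The highest were the Sm-ring proteins Snrpg (646 and 712 TPM), Snrpe (681 and 659 TPM) and Snrpb (542 and 567 TPM), which serve spliceosomal RNAs as well, and Slbp (224 and 221 TPM). Slbp thus stood at about the level of Hist1h3i and far below Hist1h2ap. Zfp473, a zinc finger protein of the U7 complex, was the only gene of 28 tested to be called, and it was higher in replicate 2. It had 63.0 and 142 counts (0.73 and 1.83 TPM), a log2 ratio of 1.10 with an adjusted p of 4.81e-06 by the exact binomial test. The list's median log2 ratio was 0.0042.

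Chaperones and DNA replication genes gave the setting in which histones are made. All 24 chaperone and transport genes were detected and 0 called, led by Npm1 (1020 TPM), Rbbp7 (428), Rbbp4 (310) and Ssrp1 (275), as means of the 2 libraries. Of these Npm1 is a nucleolar histone chaperone, and Ssrp1 a subunit of the FACT complex. All 24 DNA replication genes were also detected and 0 called, led by Top2a at 273 and 293 TPM and Pcna, the sliding clamp, at 262 and 273 TPM, then Tyms (246 TPM) and Mcm6 (240.0 TPM) as means. Their median log2 ratio was 0.0060 and that of the chaperones 0.012, against 0.068 for the histone members.

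Replication-independent variants exceeded the replication-dependent members in the H1 and H3 classes. The 15 variant genes summed to 7445 ± 25.6 TPM, with 12 detected and 0 called. H2afz, encoding H2A.Z, stood at 2150 and 2111 TPM, H3f3a at 1890 and 1862, H3f3b, which also encodes H3.3, at 1496 and 1462, and H2afv at 436 and 463. The H3 variants H3f3a, H3f3b and Cenpa summed to 9.87 times the H3 members' TPM (10.5 in replicate 1 and 9.23 in replicate 2), and those of H1 to 2.00 times (2.06 and 1.94). For H2A the ratio was 0.676 with Hist1h2ap (0.684 and 0.669) and 6.13 without it. The order of the H2A sums therefore depends on that 1 gene. The mRNAs of variants such as H2A.Z and H3.3 carry poly(A) tails, and the part that RNA capture plays in these ratios was not tested. H3f3c, annotated in M21 as a processed pseudogene, was left out of the H3 ratio.

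The libraries held 33601136 and 34535168 expected counts, of which 4.94% and 3.96% were spike-ins. All 12 lung markers were detected with 0 called, Sftpc, the surfactant protein C gene of distal epithelium, being the highest at 2155 TPM, ahead of Id2, Etv5 and Tcf21. Heart muscle genes differed between the libraries: of 12 tested, 10 were called lower in replicate 2, and the 14 genes summed to 708 TPM in replicate 1 and 137 in replicate 2, with the atrial genes Myl7 at 270 and 17.3 TPM and Nppa at 234 and 0 counts. The others called were Actc1, Tnni1, Tnnt2, Myl4, Tnni3, Myh6, Ttn and Mybpc3. The part of that tissue in the histone differences was not tested. The 13 erythroid genes had 0 called, with sums of 22254 and 23285 TPM, led by Hba-a2, Hbb-bs, Hba-a1 and Hbb-bt.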

How the data were processed

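Per the file headers, the authors deposited for each library a gene and a transcript table with the expected count (an estimated, not necessarily whole, count), TPM, posterior mean and posterior SD values, and for transcripts the percent of a gene's TPM. The read-me files name mm10, GENCODE M4 and transcriptome alignments; aligner, quantifier and strand use were each not given in the sources used here. Overlapping or antisense genes may thus share reads. Symbols, coordinates (1-based, GRCm38) and transcripts came from GENCODE M21 by unversioned identifier, and promoters from RefSeq.

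Expected counts were rounded and scaled by TMM with edgeR 4.0.16 in R 4.3.3 on the 14870 genes whose mean TPM was 1 or more. Each was compared between libraries by a two-sided exact binomial test (scipy 1.17.1), with Benjamini-Hochberg adjustment over all of them, and called at an adjusted p under 0.05 and at least 2-fold. The test compares 2 libraries and was tested on simulated data. Those data held counting error only, so they cannot show how the test behaves with spread between samples or shared reads. Intervals and floors cover counting error only. Alternatives used DESeq2 1.42.0 size factors, summed counts, spike-ins, edgeR's exact test with a common dispersion, no filter on low values, other limits and posterior means. That dispersion was estimated with the 2 libraries taken as 1 group and then used to test them against each other. Named members are the 4 highest and the lowest of each class, every H1, Hist2, Hist3, Hist4 and called member, those beside the 10% limit and 3 germ-line genes. Of the other lists the 4 highest, called genes and Zfp473 are named. Members, lists and rules were chosen with earlier results of these data known. The symbol Slip1 was not matched, and 3 histone pseudogenes were left out.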

Additional observations from a re-analysis of the deposited data

Results flagged for a closer look

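Reads were also assigned to histone pseudogenes that are outside the 64 members. Hist1h2aj, an unprocessed H2A pseudogene, had 52.4 expected counts in replicate 1 and 69.8 in replicate 2, a mean of 61.1, above the 3 counts that a count of 0 allows. Its posterior SD was 33.9 and 37.8 counts, and its level was 9.29 and 12.3 TPM. Hist1h2al, a processed pseudogene, had 8.60 and 4.19 counts, a mean of 6.40, with posterior SDs of 2.17 and 1.44 counts.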

How the results depend on the processing

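The count of called members was 1 with TMM, against 169 of all genes, and that member was Hist1h2bb. It was again Hist1h2bb alone with DESeq2 size factors, summed mouse gene counts, and a further demand, added after seeing the data, that posterior means lie over 2 combined posterior SDs apart, whereas with no filter (538 genes) the 1 member was Hist1h2br. The count was 7 of 290 genes called with spike-in scaling (all 7 higher in replicate 2, as were 93.1% of all genes tested), 4 of 398 at 1.5-fold (3 higher), 0 of 106 with edgeR's exact test (9 members at an unadjusted p under 0.05) and 0 of 147 with posterior mean counts. Spike-in scaling gave log2 ratios of class sums of 0.43 for H1, 0.34 for H2A, 0.37 for H2B, 0.48 for H3 and 0.37 for H4, and leaving out Hist1h2ap, chosen after seeing the data, gave 0.059 for H2A, with an interval of 0.0019 to 0.12. The number of uncertain copies was 17 at a 20% limit. Without uncertain copies the class sums were 4802 TPM for H2A, 131 for H2B, 332 for H3 and 488 for H4, and posterior mean TPM gave 492 for H4. Counts per kb gave shares of 1.84% for H1, 2.86% for H2B and 7.92% for H4, against 1.66%, 2.71% and 8.28% by TPM. Without Hist1h2ap the H2A sum was 546 TPM, class shares were 5.98% (H1), 32.4% (H2A), 9.78% (H2B), 22.0% (H3) and 29.9% (H4), and the share ending near the stem-loop was 35.8%. The cause of these shifts was not tested beyond what each setting leaves out. No member's ratio reversed in a called value. Taking 1 library alone gave 55 to 57 members detected and, with either library, 24 uncertain copies. No paired analysis was possible because the labels give 1 group.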
